A study of Rattus norvegicus with 111 samples.

Results

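The data described here are 10 liver libraries from pregnant rats, 4 from dams given PFO4DA by mouth at 62.5 mg/kg/d and 6 from dams given the vehicle alone (0 mg/kg/d), out of 111 libraries in the series. PFO4DA is a perfluoroalkyl ether carboxylic acid, and 62.5 mg/kg/d was its highest dose. All dams were time-mated Sprague-Dawley rats, 11 to 12 weeks old when purchased. They were dosed from gestational day 18 to 22 in 0.5% Tween-80, which the controls received too, and were killed 2 to 4 h after the last dose. The series asked how gene expression in maternal and fetal liver changes with the dose of PFO4DA or of its longer homologue PFO5DoA. Expression was measured with TempO-Seq, which joins neighbouring probes on their target RNA and counts the joined pairs by sequencing, with a panel of 22253 probes for 20924 genes. Each dam is a separate animal and counts as 1 replicate.

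The liver has high rates of fatty acid oxidation, lipoprotein assembly and clearance of foreign compounds, and late in pregnancy its output of triglyceride-rich lipoproteins is raised. In rodents, perfluoroalkyl acids are known as activators of the nuclear receptor PPARalpha, which switches on genes of fatty acid oxidation, and several of them also activate the receptors CAR and PXR. This is background only. The deposited tables identify genes by Ensembl number, and 0 of these numbers were paired with a gene symbol in the tables used here, so pathway lists and liver cell markers could not be looked up. The genes below are therefore described by their number, their level and their behaviour in the other libraries of the series, and no function is given to any of them.

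The libraries were selected on measured values, because the column names give the dam but not the life stage. Each dam had 2 columns, and the column whose log2(CPM + 1) values correlated more strongly with the labelled maternal library of dam 2286 was taken as maternal. CPM are counts scaled to a common library size. Over the 10 dams at 62.5 and 0 mg/kg/d, the 2 columns of a dam were 0.0595 to 0.0981 apart in Pearson's r. Over all 30 dams of PFO4DA, the libraries taken as maternal had r from 0.9549 to 0.9776 and those taken as fetal from 0.8715 to 0.918, so the ranges did not overlap. The rule did not use the dose of the dams it sorted. Its reference was not an untreated liver, since dam 2286 was given 30 mg/kg/d PFO5DoA. In 30 of 30 dams the library taken as maternal was also the later of the dam's 2 columns, and the same held for 25 of 25 dams of PFO5DoA. These correlations describe how the libraries were chosen and are not a test of their stage.

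**Figure D1:**
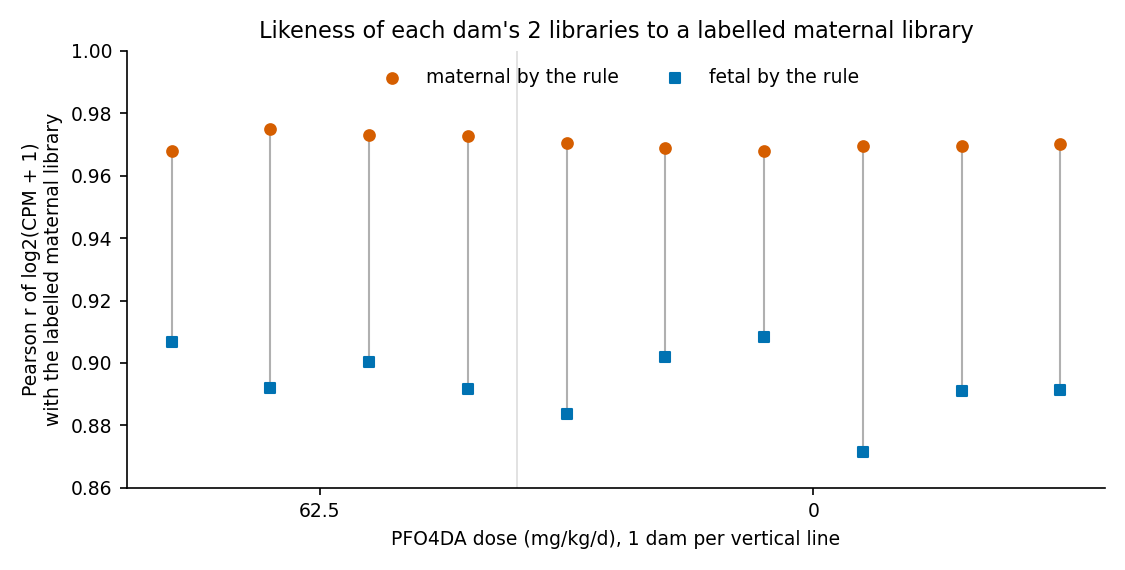
Pearson's r of log2(CPM + 1) between each library and the labelled maternal library of dam 2286, for the 4 dams at 62.5 mg/kg/d PFO4DA and the 6 control dams, with a grey line joining the 2 libraries of a dam. In each of the 10 dams the library taken as maternal (circles) lies 0.0595 to 0.0981 above the one taken as fetal (squares).

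The 4 libraries at 62.5 mg/kg/d held 7192247 to 9295254 counts, against 8236134 to 9985453 in the 6 controls. Between 12710 and 13321 genes had counts at 62.5 mg/kg/d, against 12566 to 13302 in controls. The 100 most abundant genes of a library took 56.9% of the counts on average at 62.5 mg/kg/d and 60.5% in controls, a difference that did not pass an exact permutation test (two-sided p = 0.0667, adjusted p = 0.214 over 5 library measures, where 210 splits allow p = 0.00476 at the smallest). Totals and numbers of genes with counts did not pass it either, with exact permutation p of 0.129 and 0.638. The dam identifiers form an unbroken series in which the order of doses starts again at 0 mg/kg/d with dam 2308, and the dams before and from 2308 on are called 2 runs here. All 4 dams at 62.5 mg/kg/d lay in the second run, from 2308 to 2322, together with controls 2308, 2309 and 2310. Controls 2293, 2294 and 2295 opened the first run. The 100 most abundant genes took 61.8 to 63.7% of the counts in these first-run controls and 56.1 to 60.9% in the second-run controls. At 62.5 mg/kg/d they took 55.5 to 59.1%. The permutation test did not take the run into account. The labels do not say what a run stands for, so the counts of calls are also given against the 3 controls of the second run.

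The first comparison asked which genes changed in maternal liver at 62.5 mg/kg/d. Of 10263 genes tested, 252 changed (2.46%). Rises outnumbered falls, with 185 genes higher (1.80%) and 67 lower (0.653%) at 62.5 mg/kg/d than in controls. At an unadjusted p below 0.05 the sides were nearly even, with 742 genes higher and 724 lower. The called rises were also larger than the called falls. The median rise was 0.91 on the log2 scale and the largest was 7.78, and 81 genes rose at least 2-fold, 32 at least 4-fold and 9 at least 8-fold. The median fall was -0.80, with 20 genes at least 2-fold and 1 at least 4-fold lower. A call needed an adjusted p (Benjamini-Hochberg) below 0.05 by the quasi-likelihood test of edgeR, fitted over all maternal PFO4DA doses. The median log2 fold change of all tested genes was -0.0016. In a piece of whole liver, fewer cells of a type and less RNA per cell cannot be told apart.

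The number of rises was steadier than the number of falls. DESeq2 called 234 rises and 140 falls, and a fit of only the 62.5 and 0 mg/kg/d libraries called 277 rises and 207 falls. Against a minimum fold of 1.5, edgeR's glmTreat called 43 rises and 0 falls, with 116 falls at an unadjusted p below 0.05. Against the 3 controls of the second run alone, edgeR called 155 rises and 51 falls, and 127 of the 185 rises but 19 of the 67 falls were called again. That fit left out the lower doses too. With the lower doses left out but all 6 controls kept, 176 of the rises and 64 of the falls were called again. Having fewer controls and having controls of 1 run cannot be told apart here. Leaving out a single library gave 127 to 163 rises. The same step gave 26 to 68 falls, with 26 without dam 2319, 34 without dam 2320, 35 without dam 2321 and 44 without dam 2322, all at 62.5 mg/kg/d. It gave 32 falls without control dam 2293 and 42 without control dam 2294. The control dams of the runs also differed over the called falls themselves. As a median over these 67 genes, log2 CPM relative to the control mean was -0.65 to -0.96 in the 4 dams at 62.5 mg/kg/d, -0.092 to -0.147 in the second-run controls and 0.083 to 0.15 in the first-run controls. Over the 185 rises the same median was 0.93 to 0.97 in the dams at 62.5 mg/kg/d and -0.065 to 0.076 in the 6 controls. These medians describe genes chosen on the same libraries.

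The called rises spanned a wide range of levels. Their median was 47.3 CPM at 62.5 mg/kg/d and 22.1 CPM in controls. Of the 185, 65 averaged at least 100 CPM, 103 between 10 and 100 CPM and 17 under 10 CPM, taking the mean of the group where they were higher, and 8 had a control mean under 1 CPM. The called falls had a median of 13.8 CPM at 62.5 mg/kg/d and 20.0 CPM in controls, and 11 of the 67 averaged at least 100 CPM. In 168 of the 185 rises (90.8%) and 55 of the 67 falls (82.1%) the values of the 4 dams at 62.5 mg/kg/d did not overlap those of the 6 controls. Over all tested genes this was so for 6.35%, and 2.46% were called. The last gene called had an adjusted p of 0.0488 (log2 fold change -1.59) and the next, not called, 0.0510 (log2 fold change 0.69).

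**Figure D2:**
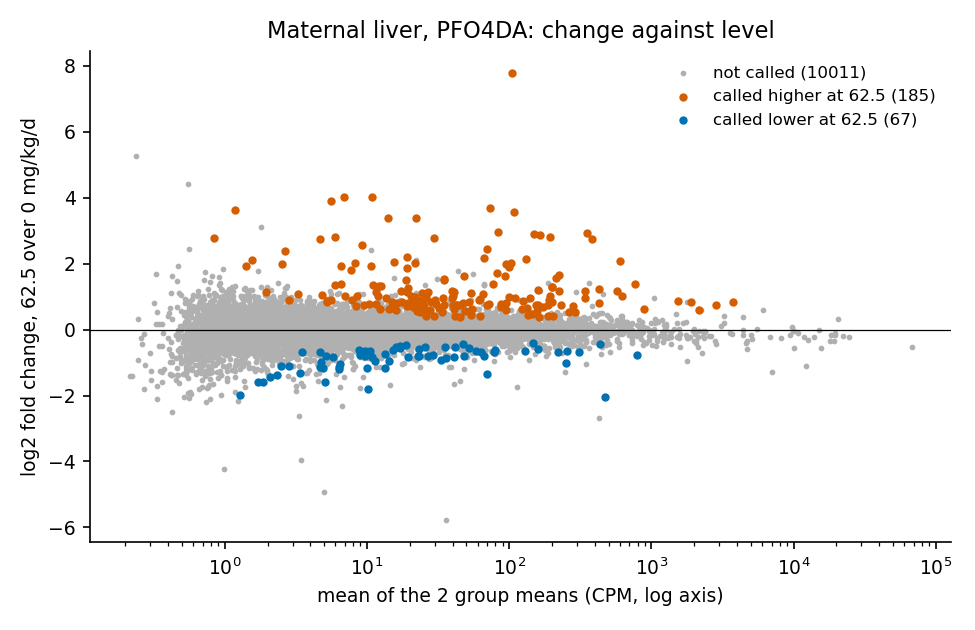
Log2 fold change at 62.5 over 0 mg/kg/d PFO4DA in maternal liver (vertical axis) against the mean of the 2 group means in CPM (log axis), with 1 point per gene tested. The 185 genes called higher (orange) reach 7.78, the 67 called lower (blue) reach -2.03, and the 10011 genes not called are grey.

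Together the called rises took a larger part of the library at 62.5 mg/kg/d. They held 4.00%, 3.98%, 4.22% and 3.81% of the counts in its 4 dams, against 1.55 to 2.21% in the 6 controls. The called falls held 0.307 to 0.363% at 62.5 mg/kg/d, against 0.515 to 0.592% in controls. In neither set did the dams of the 2 groups overlap, as follows from how the genes were chosen. At 30 mg/kg/d, in dams that are in the fit but not in that contrast, beside the same controls, the called rises held 2.68 to 3.46% of the counts and the called falls 0.431 to 0.490%.

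**Figure D3:**
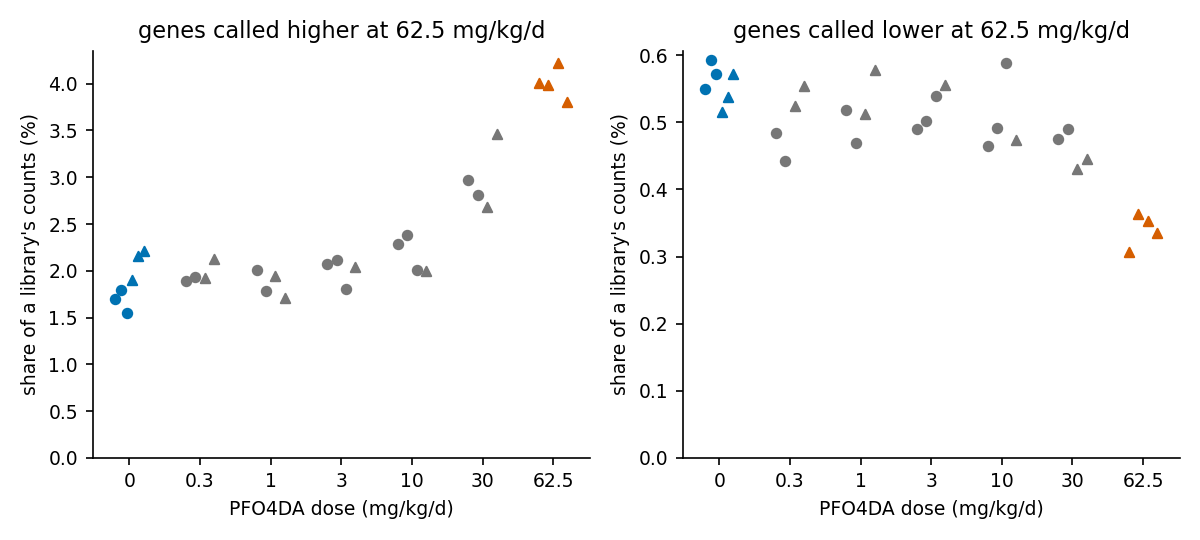
Share of each maternal library's counts, in percent, in the 185 genes called higher (left) and the 67 called lower (right) at 62.5 mg/kg/d, by PFO4DA dose. Each point is a dam, circles are dams of the first run of identifiers and triangles of the second. At 62.5 mg/kg/d (orange) the called rises hold 3.81 to 4.22%, above every other dose, and controls are blue.

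The largest rise was that of ENSRNOG00000055221. Its level was 204, 136, 286 and 211 CPM in the 4 dams at 62.5 mg/kg/d. In the 6 controls it was 0.67, 0.58, 0.63, 0.93, 1.00 and 1.73 CPM, with 5 to 17 counts per library. The lowest dosed dam was thus far above the highest control, with a mean of 209 ± 61.6 CPM (SD, n = 4) against 0.92 ± 0.43 CPM (SD, n = 6) in controls. This is a log2 fold change of 7.78 (standard error 0.56; edgeR, adjusted p = 7.53e-10), and it lay between 7.40 and 8.15 under every alternative tried, always past the threshold. Across the doses its mean was 0.72 CPM at 0.3 mg/kg/d, 0.57 CPM at 1 mg/kg/d and 0.80 CPM at 3 mg/kg/d, all below the control mean. It was 6.36 CPM at 10 mg/kg/d, where the 4 dams lay between 1.68 and 18.2 CPM and the change was not called (edgeR, adjusted p = 0.118). At 30 mg/kg/d it was 78.5 ± 39.0 CPM (SD, n = 4) and passed (log2 fold change 6.37; edgeR, adjusted p = 3.22e-08).

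The second largest rise by the same rule was that of ENSRNOG00000016222, which varied widely between dams. Dams at 62.5 mg/kg/d had 39.9, 8.32, 7.76 and 25.9 CPM. Controls had 0.78, 0.35, 3.51, 2.26, 0.22 and 0.51 CPM, with 2 to 28 counts per library. The groups did not overlap, and dosed dams averaged 20.5 ± 15.5 CPM (SD, n = 4) against 1.27 ± 1.32 CPM (SD, n = 6) in controls. Its log2 fold change was 4.02 (standard error 0.62; edgeR, adjusted p = 0.000191). Against the second-run controls alone it was 4.33 and did not pass (edgeR, adjusted p = 0.156). At 30 mg/kg/d the mean was 10.8 ± 6.27 CPM (SD, n = 4), with 1 dam at 1.82 CPM inside the control range (log2 fold change 3.10; edgeR, adjusted p = 0.0106).

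The largest fall among the called genes was that of ENSRNOG00000019542. It was at 109, 268, 218 and 141 CPM in the dams at 62.5 mg/kg/d and at 732, 1157, 857, 592, 469 and 713 CPM in the controls. Every dosed dam was below the lowest control, and dosed dams averaged 184 ± 72.5 CPM (SD, n = 4) against 753 ± 238 CPM (SD, n = 6) in controls. The log2 fold change was -2.03 (standard error 0.47; edgeR, adjusted p = 0.0181). It did not pass without dam 2319 (log2 fold change -1.85; edgeR, adjusted p = 0.0880) or without dam 2322 (log2 fold change -1.94; edgeR, adjusted p = 0.0673). At the lower doses the means were 449.5 to 648 CPM, and dams ranged from 164 CPM at 0.3 mg/kg/d to 1307 CPM at 10 mg/kg/d.

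The other fall named is that of ENSRNOG00000061527. It was at 5.46, 3.83, 5.85 and 3.11 CPM at 62.5 mg/kg/d and at 11.2, 11.4, 17.9, 22.3, 19.1 and 13.6 CPM in the controls. The groups did not overlap, with a mean of 4.56 ± 1.30 CPM (SD, n = 4) in dosed dams against 15.9 ± 4.55 CPM (SD, n = 6) in controls. The log2 fold change of -1.80 (standard error 0.48) was close to the threshold (edgeR, adjusted p = 0.0443). In the fit over all doses it was lost whichever of the 10 libraries was left out (edgeR, adjusted p = 0.0509 to 0.139). The log2 fold change then stayed between -1.66 and -1.94. It passed in 5 of 18 alternatives and not in 13. Those it passed include the fit of only the 62.5 and 0 mg/kg/d libraries (edgeR, adjusted p = 0.000151). The second-run controls alone (edgeR, adjusted p = 0.000191) and DESeq2 (adjusted p = 0.00197) also gave a pass. The lower doses held values nearly as low, with a mean of 4.96 CPM at 3 and 5.49 CPM at 10 mg/kg/d. They also held values about as high as controls, with 15.8 CPM at 1 mg/kg/d. The means at 0.3 and 30 mg/kg/d were 7.23 and 9.09 CPM. A trend with dose was not tested.

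These are the 2 largest rises and 2 largest falls among the called genes with a mean of at least 5 CPM in either group and groups that do not overlap, which were 160 rises and 46 falls. The 12 largest rises in that set ran from 2.82 to 7.78 and the 12 largest falls from -0.97 to -2.03 on the log2 scale.

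**Figure D4:**
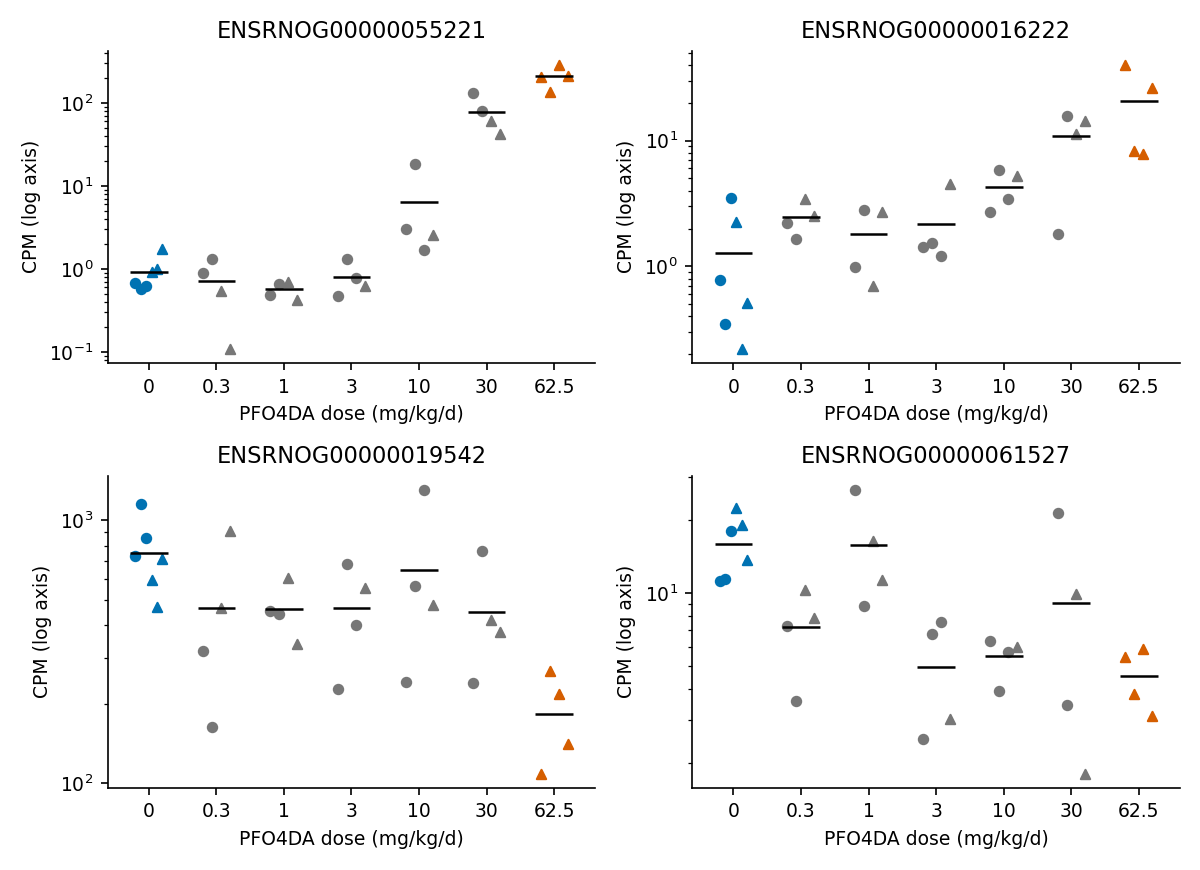
CPM (log axis) of the 4 named genes in every maternal PFO4DA dam, by dose in mg/kg/d. Each point is a dam (circles first run, triangles second run), black lines are group means, controls are blue and dams at 62.5 mg/kg/d orange. ENSRNOG00000055221 lies at 136 to 286 CPM at 62.5 mg/kg/d, and the group means of ENSRNOG00000061527 do not fall steadily with dose.

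At the lower doses of PFO4DA few genes changed in maternal liver. The dose of 30 mg/kg/d gave 65 called genes (0.633%), 63 rises and 2 falls, and that of 10 mg/kg/d gave 1 (0.00974%), a rise. At 0.3, 1 and 3 mg/kg/d edgeR called 0 genes each (0%). Without adjustment 269, 221 and 285 genes had p below 0.05 at these doses, against 825 at 10, 724 at 30 and 1466 at 62.5 mg/kg/d. DESeq2 found 4, 1 and 0 changed genes at 0.3, 1 and 3 mg/kg/d. With the same tool 16 genes rose and 4 fell at 10 mg/kg/d, and 85 rose and 7 fell at 30 mg/kg/d. All doses were compared with the same 6 controls, so their values are given side by side only. For the 185 genes called higher at 62.5 mg/kg/d, the median log2 fold change was 0.15 at 0.3, 0.05 at 1, 0.10 at 3, 0.32 at 10, 0.60 at 30 and 0.91 at 62.5 mg/kg/d, and 60 of them were also called at 30 mg/kg/d. For the 67 genes called lower the medians were -0.15, -0.04, -0.07, -0.09, -0.14 and -0.80 over the same doses, and 0 of them were called at any lower dose by edgeR. Over all tested genes the medians stayed within -0.0016 and 0.024.

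The next question was whether genes that set maternal apart from fetal liver changed. Classes were taken from 5 control dams of PFO5DoA, which took no part in the PFO4DA contrast, as genes at least 4-fold apart between the 2 livers and past an adjusted p of 0.05 in edgeR. Of 564 maternal-enriched genes tested at 62.5 mg/kg/d, 17 rose (3.01%) and 15 fell (2.66%), against 1.80% and 0.653% over all tested genes, and their median log2 fold change was -0.092. Of 472 fetal-enriched genes tested, 4 rose (0.847%) and 1 fell (0.212%), with a median of -0.063. The fetal-enriched class held 918 genes, and the others had too few counts in maternal liver to be tested. All 564 maternal-enriched genes were tested. The classes were not matched for level, so their shares called do not compare their responses. In 8675 genes of neither class, 158 rose and 51 fell. Both named falls belonged to the maternal-enriched class and ENSRNOG00000016222 to the fetal-enriched class. Maternal-enriched genes together held 38.6% of the counts at 62.5 mg/kg/d and 41.0% in controls, and fetal-enriched genes 0.81% and 0.88%. Neither share passed the exact permutation test (two-sided p = 0.0857 and 0.314, adjusted p = 0.214 and 0.393 over the 5 library measures). The maternal-enriched share was 40.0 to 43.6% in the first-run controls, 38.0 to 41.3% in the second-run controls and 37.75 to 40.1% at 62.5 mg/kg/d.

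Fetal liver of the same dams changed in more genes. There, 1188 of 11172 genes (10.6%) passed the same test at 62.5 mg/kg/d, 526 rises and 662 falls. The fetal libraries took no part in choosing the maternal calls. Of the 185 maternal rises, 104 also rose in fetal liver, 1 fell, 77 were not called and 3 were not tested, and their median log2 fold change in fetal liver was 0.73. Of the 67 maternal falls, 17 also fell in fetal liver, 0 rose, 48 were not called and 2 were not tested, with a median of -0.27. Of all 9874 genes tested in both livers, 467 rose and 610 fell in fetal liver. A gene called in maternal and not in fetal liver is not thereby shown to differ between them.

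The difference between the responses was tested directly, as the change in maternal liver minus the change in fetal liver, with the dam as a block in edgeR. It passed for 326 of 11610 genes (2.81%). The maternal response was the more positive in 227 of them (1.96%) and the more negative in 99 (0.853%). Most of these genes were called in fetal liver, but they were chosen on a difference that includes the fetal change. The counts and medians that follow therefore only describe them. Over all 11172 genes tested in fetal liver, 662 fell and 526 rose. Of the 227 genes, 185 fell in fetal liver and 21 rose in maternal liver, with a median log2 fold change of 0.14 in maternal and -1.09 in fetal liver. Of the 99 genes, 80 rose in fetal liver and 5 fell in maternal liver, with medians of -0.18 in maternal and 1.33 in fetal liver. Without dam 2320, at 62.5 mg/kg/d, 149 genes were on the more positive side.

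The genes that changed in maternal liver mostly did not pass this test of the difference. Of the 185 rises 31 did (16.8%), 21 with the more positive response in maternal and 10 in fetal liver. Of the 67 falls 8 did (11.9%), 5 with the more negative response in maternal liver. These shares lie above the 2.81% of all genes, but the genes were called on the maternal side of the same difference, so nothing is read from that.

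For ENSRNOG00000055221 the fetal livers had 740, 512, 678 and 825 CPM at 62.5 mg/kg/d. The fetal controls had 55.9, 2.58, 2.13, 6.23, 3.66 and 6.04 CPM, of which the first, of dam 2293, stood far from the rest. Its log2 fold change in fetal liver was 5.76 (edgeR, adjusted p = 1.3e-06), and the maternal minus fetal difference was 1.27, with an approximate 95% interval of -0.17 to 2.72 (edgeR, adjusted p = 0.480). The difference comes from the joint fit with the dam as a block, so it is not 7.78 minus 5.76. Without dam 2293 that difference was 0.34 (edgeR, adjusted p = 0.879). Without the low-count filter it was 1.25 and passed (edgeR, adjusted p = 0.00311). ENSRNOG00000016222 was the more abundant in fetal liver at both doses. It had 80.0 ± 24.6 CPM (SD, n = 4) in dosed and 24.7 ± 13.3 CPM (SD, n = 6) in control fetal livers. Its log2 fold change in fetal liver was 1.69 (edgeR, adjusted p = 0.000143). Its difference between responses was 2.14, with an approximate unadjusted interval of 0.96 to 3.32, and just missed the threshold (edgeR, adjusted p = 0.0516, and 4.01e-10 to 0.187 over the alternatives). ENSRNOG00000019542 had 55.5 ± 17.5 CPM (SD, n = 4) in dosed and 88.0 ± 27.1 CPM (SD, n = 6) in control fetal livers. Its log2 fold change there was -0.67 (edgeR, adjusted p = 0.0586), and the difference of -1.38 did not pass (edgeR, adjusted p = 0.162, and 1.05e-06 to 0.398 over the alternatives). For ENSRNOG00000016222 and ENSRNOG00000019542 the lowest adjusted p came from the edgeR fit without the low-count filter. The differences in that fit were 2.14 and -1.39. ENSRNOG00000061527 was under 1 CPM in all 10 fetal libraries and was not tested there.

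**Figure D5:**
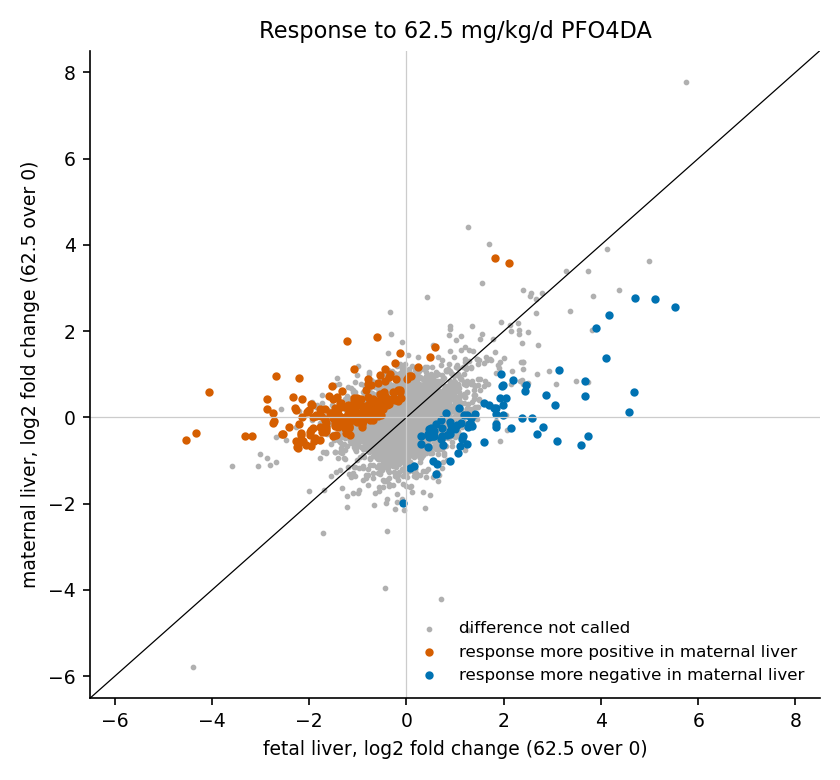
Log2 fold change at 62.5 over 0 mg/kg/d PFO4DA in maternal liver (vertical axis) against that in fetal liver (horizontal axis), for 9874 genes tested in both, with the line of equal response. Genes whose responses differ by the interaction test are orange where the maternal response is the more positive (219 of these genes). They are blue where it is the more negative (90). Most of the coloured genes lie near 0 on the maternal axis, and they were chosen on the difference between the axes.

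The last comparison set the calls beside maternal liver under PFO5DoA, which has its own control dams. The PFO5DoA doses analysed here run from 0.3 to 30 mg/kg/d, and the dams given 0.1 mg/kg/d were not used. With no shared dose of 62.5 mg/kg/d, no test between the chemicals was made. In maternal liver under PFO5DoA 343 of 10611 genes passed at the dose of 3 mg/kg/d (3.23%), 1669 at 10 (15.7%) and 4407 at 30 mg/kg/d (41.5%). Overlaps were counted over the 10159 genes tested for both chemicals. At 3 mg/kg/d PFO5DoA 103 genes rose that also rose at 62.5 mg/kg/d PFO4DA, which is 55.7% of the 185 PFO4DA rises and 48.6% of the 212 PFO5DoA rises, while 2.09% of all these genes rose at that PFO5DoA dose. Of the falls 10 were shared, which is 14.9% of the 67 PFO4DA falls and 8.47% of the 118 PFO5DoA falls, against 1.16% of all genes. At 10 mg/kg/d PFO5DoA 133 rises were shared (71.9% of the PFO4DA and 16.7% of the PFO5DoA list, against 7.85% of all genes) and 25 falls (37.3% and 3.00%, against 8.19%). At both of these doses 0 genes were called in opposite directions by edgeR.

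At 30 mg/kg/d PFO5DoA, where 41.5% of all genes changed, 138 of the PFO4DA rises also rose and 5 fell. Of the PFO4DA falls 37 also fell and 8 rose at that dose. The median log2 fold change of the 185 rises was 0.27 at 0.3, 0.46 at 1, 0.85 at 3, 1.04 at 10 and 1.14 at 30 mg/kg/d PFO5DoA. For the 67 falls it was -0.19, -0.14, -0.39, -0.40 and -0.59 over the same doses. The dams behind these medians were not in the fit that chose the genes. Dam 2286, 1 of the 4 at 30 mg/kg/d, was however the reference of the life stage rule.

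ENSRNOG00000055221 also rose under PFO5DoA. It averaged 73.3 ± 45.7 CPM (SD, n = 3) at 1 mg/kg/d, 460 ± 175 CPM (SD, n = 4) at 3, 811 ± 114 CPM (SD, n = 4) at 10 and 1155 ± 255 CPM (SD, n = 4) at 30 mg/kg/d. The PFO5DoA controls averaged 1.76 ± 0.42 CPM (SD, n = 6), and each of these doses passed the test, with log2 fold changes of 5.38 to 9.36. ENSRNOG00000016222 passed at 3, 10 and 30 mg/kg/d PFO5DoA, with log2 fold changes of 3.73, 4.14 and 3.44. The 2 falls passed at 30 mg/kg/d PFO5DoA and at none of the doses of 0.3, 1, 3 and 10 mg/kg/d. There the log2 fold change of ENSRNOG00000019542 was -2.11 (edgeR, adjusted p = 0.0313) and that of ENSRNOG00000061527 was -2.19 (edgeR, adjusted p = 0.0211). In the PFO5DoA controls these genes had 529 ± 333 and 7.81 ± 4.01 CPM (SD, n = 6 each). The tables of the chemicals were scaled separately, so levels are not compared between them.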

How the data were processed

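RNA of maternal and fetal liver pieces (30 to 50 mg) was assayed with TempO-Seq. The authors deposited a table per chemical with estimated counts for 20311 genes, not normalized, of which 11.8% of the PFO4DA values and 12.2% of the PFO5DoA values have decimals. Per the labels' protocols the reads were aligned with Partek Flow (10.0.22.1115), and the submitters' processing notes name STAR 2.7.8a, DESeq2 and the build mRatBN7.2 without saying which tool made the tables. The deposited estimated counts were rounded before any test. All columns were mapped to dams.

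Each dose was tested against the controls by edgeR (4.0.16; R 4.3.3) with TMM scaling, filterByExpr, robust glmQLFit and glmQLFTest, in a fit of the 30 maternal PFO4DA libraries. Maternal PFO5DoA libraries and fetal libraries had fits of their own. Classes of stage-enriched genes leave out PFO5DoA control dam 2279, whose fetal library held 45504 counts. The difference between livers was tested in a fit of all 60 PFO4DA libraries with the dam as a block. A standard error is the log2 fold change divided by the square root of F, and intervals are 1.96 of them to each side. Levels are TMM-scaled CPM, with the SD over dams. DESeq2 1.42.0 and limma 3.58.1 served as alternatives, besides RLE scaling, no filter on low counts, fewer libraries or controls, the dam run as a covariate, the replicate number as a block and a minimum fold of 1.5. The steps were also run on simulated counts, whose outcome is not given here. Those counts held no effect of the dam run, so they cannot speak to it.

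Libraries, comparisons and gene rules were chosen with earlier results of these data known. The 2 largest rises and falls with a mean of at least 5 CPM and groups that do not overlap are named. The 35 gene lists and markers prepared could not be looked up without symbols. Every pair of libraries in a group differed by more than sampling noise (the lowest ratio of chi-square to degrees of freedom was 19.7). The library totals of 7192247 to 11599690 counts limit the precision of genes with few counts.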

Additional observations from a re-analysis of the deposited data

Results flagged for a closer look

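In 4 of 46 groups checked, of the 4 named genes and 5 library measures, 1 library stood far from the others of its group, where chance alone gives about 1 group in 20. ENSRNOG00000055221 had 55.9 CPM in the fetal control library of dam 2293, against 2.13 to 6.23 CPM in the other fetal controls. The same gene had 1.73 CPM in the maternal control library of dam 2310, against 0.58 to 1.00 CPM in the other maternal controls. It also had 18.2 CPM in dam 2304 at 10 mg/kg/d PFO4DA, against 1.68 to 3.03 CPM in the other dams at that dose. ENSRNOG00000016222 had 4.51 CPM in dam 2315 at 3 mg/kg/d, against 1.22 to 1.53 CPM in the other dams there. Without dam 2310 the maternal log2 fold change of ENSRNOG00000055221 at 62.5 mg/kg/d was 8.05, against 7.78 with all dams. The flagged library of dam 2293 is fetal and not in that maternal fit. The fetal change alone was not refitted without it.

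The responses of maternal and fetal liver to 62.5 mg/kg/d PFO4DA differed by the interaction test, with the maternal response the more positive in 227 genes and the more negative in 99 genes.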

How the results depend on the processing

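With 4 dosed and 6 control dams, small changes of genes with few counts have wide errors. Each alternative changes a single choice, except that the fits with the replicate block or the second-run controls hold only the 62.5 and 0 mg/kg/d libraries. DESeq2 called 234 rises and 140 falls in maternal liver at 62.5 mg/kg/d. With no filter on low counts 148 were higher and 44 lower, with only the 62.5 and 0 mg/kg/d libraries 277 and 207, and with the dam run as a covariate 152 and 44, of which 138 and 39 were also called without it. With the replicate number as a block in a paired fit (replicate block) 186 were higher and 133 lower, but dams that share a number do not deviate together (r of -0.0477 to 0.00829 over 4 numbers), so the numbers pair no dams. Against a minimum fold of 1.5, 43 were higher and 0 lower with edgeR's glmTreat, with 116 falls at an unadjusted p under 0.05. Leaving out a library gave 127 to 163 rises and 26 to 68 falls. With RLE scaling 180 were higher and 68 lower.

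The difference between livers gave 362 genes above 0 and 238 below 0 with no filter on low counts, and 149 to 224 above and 70 to 101 below without a single dam. Of the log2 fold changes of the named genes 0 changed sign under any of 18 alternatives. ENSRNOG00000055221 passed in all 18, ENSRNOG00000016222 in 16, ENSRNOG00000019542 in 15 and ENSRNOG00000061527 in 5. The cause of these changes was not tested. Assigning the life stage by fetal liver markers could not be run without gene symbols.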
